A study of Mus musculus with 22 samples.

Results

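The comparison described here is between muscle stem cells taken 3 days after an injury made at ZT16 and stem cells taken 3 days after an injury made at ZT4. Its members are the 8 libraries titled as day 3 samples, 4 per time, out of 22 libraries in the series. All mice carried Pax7-zsgreen, a fluorescent reporter of Pax7, which marks these cells in muscle. Hindlimb muscle was injured with cardiotoxin, a snake toxin that kills myofibers and sets off their regeneration. In both groups the mice were perfused with cold saline and then with a weak paraformaldehyde fixative that was quenched with glycine, and the ZsGreen-positive cells were collected. Their total RNA was purified with a kit meant for fixed material, with a proteinase K digestion, and turned into SMART-seq v4 libraries. ZT stands for zeitgeber time, the hour since lights on, so in a standard cycle ZT4 is daytime, when mice rest, and ZT16 is night, when they are active. The labels tie the 2 times to the injury and give neither the hour of collection nor the age of the mice. They do not say whether replicates came from separate mice, so p-values measure the spread between these samples, which may be partly technical. The other 14 libraries, from uninjured muscle and from day 1 after injury at the same times, entered the fit and served for comparison.

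In the molecular clock, the activators CLOCK and BMAL1 (gene Arntl) switch on the Per, Cry, Nr1d and output genes, whose products then hold the activators down. REV-ERB proteins, encoded by Nr1d1 and Nr1d2, repress Arntl and many metabolic genes through response elements shared with ROR receptors. In injured muscle, stem cells leave quiescence, divide as myoblasts, remodel the surrounding matrix, exchange signals with immune cells and later fuse into new fibers. The question set by the design is whether the hour of the injury left a difference in stem cells at day 3.

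The smallest day 3 library held 6302528 estimated counts and the largest 9751536, and between 17101 and 23267 genes had a count. ZT4 replicate 1, the smallest library, had the most genes with a count, followed by ZT4 replicate 2 (20759) and ZT16 replicate 4 (20414). The other libraries had 17101 to 18897. Muscle stem cell genes were well measured: the mean TPM (the share of transcripts, a level adjusted for length) at ZT4 and ZT16 was 584 and 654 for Myod1, 433 and 367 for Itga7, 268 and 273 for Cdh15, and 144 and 136 for Vcam1. Pax7 itself was lower, at 6.31 and 6.57 TPM, and Myf5 was at 44.2 and 37.7. Genes of other cells were also present. The macrophage gene Lyz2 had 448 and 368 TPM, the leukocyte gene Ptprc 3.14 and 2.11, the fibro-adipogenic gene Pdgfra 3.52 and 2.18, and the endothelial gene Pecam1 2.41 and 2.45. In such pooled cells, fewer cells of a type and less RNA per cell cannot be told apart. One library lay nearer to the other group than to its own. ZT16 replicate 1 had a mean correlation of log2 levels of 0.9807 with the ZT4 libraries and of 0.9739 with the other ZT16 libraries. For the other 3 ZT16 libraries these were 0.9714 to 0.9731 and 0.9744 to 0.976. On the first principal component of the 8 libraries, which held 26.2% of the variance, the ZT4 libraries lay between -15.15 and -7.28 and ZT16 replicate 1 at -10.47, while ZT16 replicates 2, 3 and 4 lay at 10.02, 20.37 and 23.51. No gene in these data checks the label of its time, so whether that label holds was not tested. A number of values below are also given without this library. On the second principal component, which held 19.2% of the variance, ZT16 replicate 2 stood apart at -26.87. All other libraries lay between -7.95 and 13.44 on it.

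No gene passed the test between injury at ZT16 and injury at ZT4 after adjustment. In the edgeR quasi-likelihood fit of all libraries, 0 of 15084 genes tested (0.0%) passed a Benjamini-Hochberg adjusted p of 0.05, and the smallest adjusted p was 0.143. That was 9630010A21Rik, with 41 counts over the ZT4 libraries and 1 over the ZT16 libraries. At an unadjusted p under 0.05 there were 1003 genes (6.65%), 477 higher at ZT16 (3.16%) and 526 lower (3.49%). The 4 ZT16 values lay above all 4 ZT4 values for 464 genes (3.08%) and below them for 457 (3.03%). The log2 change, always ZT16 minus ZT4, was above 0 for 50.5% of genes and below 0 for 49.4%, with a median of 0.003. These shares are the background for the counts of each gene group below. Other tools gave between 0 and 4 calls in all 22 libraries with the same filter on low counts. DESeq2 gave 4 and limma voom 0.

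The fit on the 8 day 3 libraries alone, where the spread was smaller (common dispersion 0.0234 against 0.0444), called 1 gene, Angptl4, lower at ZT16 (0.00766% of 13059 genes). On the same 8 libraries limma voom called 5 genes (0.0383%), 1 higher (0.00766%) and 4 lower (0.0306%), and DESeq2 called 141, 52 higher and 89 lower at ZT16 (1.08% of 13059 genes tested). DESeq2 gave no adjusted p for 5064 of the 13059, which are among the genes not called, and Dnm3os, Cxcl5, Tbc1d8b, Mmp9 and Cpne2, described below, are among them. Without ZT16 replicate 1, the edgeR fit of the remaining 7 day 3 libraries called 135 genes, 41 higher (0.311%) and 94 lower (0.712%), together 1.02% of 13199. The DESeq2 set and this set shared 75 genes, all with the same sign, which is 53.2% of the first and 55.6% of the second. The 7 libraries are among the 8, so the overlap and the shared signs are not independent agreement. The DESeq2 and voom fits of the day 3 libraries alone, and the fits that drop a library from them, were added after the data were seen. ZT16 replicate 1 was singled out by its place among the ZT4 libraries in these same data. Leaving it out therefore favours a gap between the groups. With any other single library left out of the edgeR fit of the day 3 libraries, 0 to 3 genes were called. Adjusted p-values without ZT16 replicate 1 are given below as descriptions and add no support to a difference. The genes below are described by their levels in the 8 libraries, as CPM (the usual depth-adjusted count, on library sizes scaled by TMM), in the order replicate 1 to replicate 4 and with ZT4 before ZT16. Ranges run from the lowest to the highest of the 4 libraries. Unless another fit is named, changes (± SE) and adjusted p come from the edgeR fit of all libraries.

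Angptl4, which encodes a secreted inhibitor of lipoprotein lipase (chr17:33773750-33781830 on GRCm38), was lower after injury at ZT16. Its CPM was 196, 195, 239.5 and 196 at ZT4 and 122, 149, 108 and 105 at ZT16. Every ZT16 library lay below every ZT4 library, and the means were 206 ± 22 and 121 ± 20.2 (SD, n = 4 and 4). The log2 change was -0.77 ± 0.46, with an adjusted p of 0.842 in all libraries, 0.0235 in the day 3 libraries alone and 0.0109 in those without ZT16 replicate 1. Over the 27 alternatives run, the adjusted p of Angptl4 ranged from 3.69e-07 to 1.0 and its change from -0.89 to -0.69. Plin2, which coats lipid droplets, was at 155, 152, 148 and 146 and at 122, 119.6, 106 and 107 (-0.40 ± 0.16, adjusted p 0.714, 0.05601 in the day 3 libraries alone and 0.0121 in those without ZT16 replicate 1). Soat1, which esterifies cholesterol, was at 157 to 191 and at 113 to 153 (-0.45 ± 0.13, adjusted p 0.688, and 0.00754 in the day 3 libraries without ZT16 replicate 1). For both genes the groups did not overlap. Angptl4, Plin2, Soat1, Sema3a, Ipo7, Dnm3os, Dnm3, Vcan, Fn1, Tnc, Il1r1 and Fam19a5 are described because of their values.

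Sema3a, a secreted guidance cue that myoblasts release toward motor axons in regenerating muscle, was at 53.5, 44.8, 40.5 and 30.3 CPM at ZT4 and 24.4, 20.6, 21.9 and 20.2 at ZT16 (-0.95 ± 0.36, adjusted p 0.692, 0.0511 in the day 3 libraries alone and 0.0102 in those without ZT16 replicate 1). The 4 ZT16 values were close together and below all ZT4 values. Ipo7, a nuclear import receptor, was at 122 to 140.0 and 70.9 to 97.1 (-0.56 ± 0.18, adjusted p 0.692, and 0.00754 in the day 3 libraries without ZT16 replicate 1). Fam19a5, which encodes a secreted peptide, was higher, at 53.7 to 66.8 and 81.5 to 91.9 (0.50 ± 0.21). Neither gene's groups overlapped.

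Dnm3os, a noncoding RNA gene (chr1:162217623-162225550, plus strand), had 15.4, 21, 15.3 and 17.2 CPM at ZT4 and 10.3, 5.91, 4.798 and 5.13 at ZT16. All ZT16 libraries were lower, and ZT16 replicate 1 lay between the other 3 and the ZT4 libraries. The change was -1.38 ± 0.40 with an adjusted p of 0.688, and -1.71 with an adjusted p of 0.00294 in the day 3 libraries without ZT16 replicate 1. It lies inside Dnm3 (chr1:161982453-162478034, minus strand), and since the counting is not stated to use strand, reads of the 2 genes may not be fully separated. Dnm3 had 0.656 to 5.65 and 0.3199 to 2.599 CPM, with overlapping groups. The Dnm3os transcript carries the hairpins of miR-199a and miR-214, microRNAs expressed in connective tissue and developing muscle. Their 4 mature forms within the gene are shown because they are the known products of this RNA. They come from RefSeq on GRCm38.p6, with bases 2 to 8, the seed that pairs with targets, in capitals. The mature microRNAs were not analysed here.
mmu-miR-199a-5p (chr1:162217844-162217866): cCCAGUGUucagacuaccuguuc
mmu-miR-199a-3p (chr1:162217883-162217904): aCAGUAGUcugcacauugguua
mmu-miR-214-5p (chr1:162223397-162223418): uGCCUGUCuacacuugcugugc
mmu-miR-214-3p (chr1:162223438-162223459): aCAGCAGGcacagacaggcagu
The 4 seeds differ from each other.

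**Figure D1:**
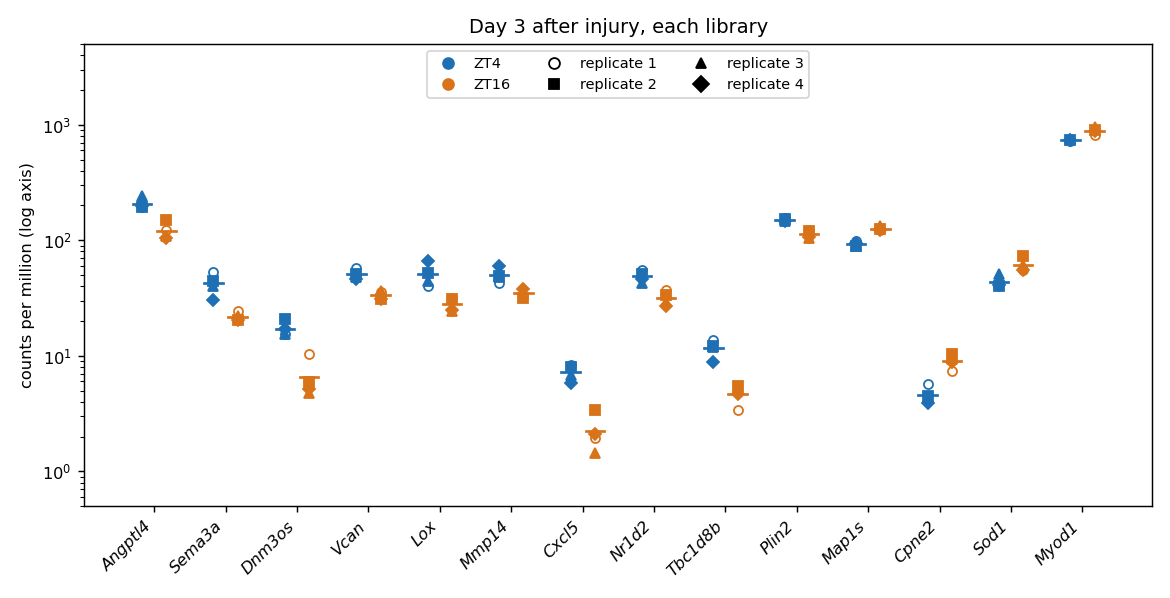
CPM (log axis) of 14 genes in the 8 day 3 libraries, ZT4 in blue and ZT16 in orange, with a marker shape per replicate and a bar at the mean of each group. In each gene shown the ZT4 and ZT16 values do not overlap, and none passed the adjusted p of 0.05 in the fit of all libraries.

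Of the 10 genes with the smallest p among those lower at ZT16 whose groups did not overlap, Cxcl5, a chemokine that draws neutrophils (chr5:90759360-90761624), had 8.32, 8.07, 6.83 and 5.77 CPM at ZT4 and 1.95, 3.43, 1.44 and 2.11 at ZT16 (-1.68 ± 0.38, adjusted p 0.488, and 0.027 by DESeq2 in all libraries). Mmp14, a membrane-bound collagenase that activates other matrix proteases, was at 42.4, 49.1, 47.97 and 59.3 and 32.8, 31.5, 36.6 and 37.6 (-0.52 ± 0.14, 0.642). Slc39a14, a zinc and iron importer, was at 57.4, 70.1, 65.8 and 64.3 and 56.6, 40.8, 34.9 and 44.2 (-0.54 ± 0.15, 0.674). Its highest ZT16 value, in replicate 1, lay just under its lowest ZT4 value, and without that library the adjusted p in the day 3 libraries was 0.00984. Over the same alternatives the adjusted p of Cxcl5 ranged from 0.00095 to 0.971.

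Among the other 7 lower genes were Tbc1d8b, a Rab GTPase regulator, and Dlc1, a GTPase-activating protein. Tbc1d8b was at 13.8, 12.2, 12.03 and 8.79 and 3.39, 5.44, 5.28 and 4.68 CPM (-1.32 ± 0.29, adjusted p 0.488, and 0.027 by DESeq2, with a range of 0.0218 to 1.0 over the alternatives). Dlc1 was at 9.18 to 16.8 and 5.28 to 6.56 (-0.995 ± 0.27). The remaining 5 were the clock gene Nr1d2, described below, Tmem245 (-0.50 ± 0.12), Uggt2, which checks glycoprotein folding (-0.67 ± 0.17), Sec22a (-0.44 ± 0.11) and Khnyn, a cofactor of antiviral RNA decay (-0.66 ± 0.18).

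Of the 10 genes chosen in the same way that were higher at ZT16, Cpne2, a calcium-dependent membrane-binding protein, had 5.65, 4.45, 4.31 and 3.94 CPM at ZT4 and 7.39, 10.3, 9.44 and 8.75 at ZT16 (0.97 ± 0.20, adjusted p 0.488). Map1s, which links microtubules to autophagy, was at 99.2, 88.9, 89.8 and 94.5 and 123, 126, 134 and 122 (0.44 ± 0.11, adjusted p 0.5902, and 0.0171 in the day 3 libraries without ZT16 replicate 1). Sod1, the cytosolic superoxide dismutase, was at 42.8, 39.9, 51.2 and 40.8 and 54.8, 73.7, 61.3 and 55.8 (0.49 ± 0.14, 0.688). In each of the 3 genes the lowest ZT16 value exceeded the highest ZT4 value. Zfas1, a noncoding RNA that hosts small nucleolar RNAs, was at 31.1 to 39.2 and 41.8 to 80.9 (0.68 ± 0.18). Rpp38, a subunit of RNase P, was at 10.6 to 15.5 and 15.9 to 27.05 (0.83 ± 0.21). Mgme1, a nuclease that maintains mitochondrial DNA, was at 21.4 to 27.03 and 32.6 to 34.7 (0.48 ± 0.13). The others were 1600020E01Rik (0.92 ± 0.21), Banp (0.59 ± 0.15), Gtf2i (0.34 ± 0.091) and Btbd1 (0.42 ± 0.12).

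No clock gene passed the test for the hour of injury. Of 21 clock genes, all tested, 0 passed the adjusted threshold. At an unadjusted p of 0.05, 3 passed, all lower at ZT16, against 3.49% of all genes. The groups of 1, Nr1d2, did not overlap, against 3.03% of all genes that were lower in this way. The median change was -0.27 over 7 activators and genes driven by ROR elements, and -0.26 over 14 repressors and output genes, against 0.003 over all genes. Without ZT16 replicate 1 these medians were -0.61 and -0.20.

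Nr1d2, which encodes REV-ERB beta, had 55.7, 50.9, 42.8 and 46.2 CPM at ZT4 and 37.1, 33.6, 29.4 and 27.01 at ZT16. All ZT16 libraries were lower, and replicate 1 was the highest of them. The means were 48.9 ± 5.64 and 31.8 ± 4.44 (SD, n = 4 and 4), with a change of -0.62 ± 0.14 and an adjusted p of 0.488. It was 0.00681 by DESeq2 on the day 3 libraries alone and ranged from 0.00567 to 1.0 over the alternatives. Its paralog Nr1d1, which encodes REV-ERB alpha, was at 23.5, 27.5, 33.7 and 23.8 and 28.02, 20.1, 19.2 and 14.03. The groups overlapped through ZT16 replicate 1, and the change was -0.40 ± 0.17 (adjusted p 0.734).

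The 250 bases before the start of these 2 REV-ERB genes are shown, since they were the clock repressors with the smallest p. They are RefSeq promoters on GRCm38.p6, printed 5′ to 3′ on the gene's strand. Capitals mark CACGTG (the E-box bound by CLOCK and BMAL1), CACGTT (a variant E-box) or AGGTCA (the half-site bound by REV-ERB and ROR), each searched on both strands.
Nr1d2 (chr14:18239107-18239356, minus strand): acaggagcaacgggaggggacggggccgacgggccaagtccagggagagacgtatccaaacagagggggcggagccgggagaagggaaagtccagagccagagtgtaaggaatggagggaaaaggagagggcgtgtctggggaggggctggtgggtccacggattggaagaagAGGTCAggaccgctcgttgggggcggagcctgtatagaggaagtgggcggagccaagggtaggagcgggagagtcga
Nr1d1 (chr11:98775378-98775627, minus strand): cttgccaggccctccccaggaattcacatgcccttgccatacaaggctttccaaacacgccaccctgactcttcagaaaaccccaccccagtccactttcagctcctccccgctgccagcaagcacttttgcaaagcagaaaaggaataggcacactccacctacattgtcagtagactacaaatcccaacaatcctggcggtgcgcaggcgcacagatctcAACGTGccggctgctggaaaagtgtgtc
The Nr1d2 stretch held 1 AGGTCA, 77 bases before the start, and the Nr1d1 stretch 1 CACGTT, read as AACGTG on this strand, 28 bases before the start. Over 23 promoter entries of 18 clock genes with an entry, CACGTG stood in 6, CACGTT in 3 and AGGTCA in 4. Over all 32851 promoter entries the shares were 6.02%, 3.85% and 14.0%. A match of letters is a description and does not show binding.

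Among the other clock genes, Ciart, a repressor of CLOCK and BMAL1, was at 5.65, 6.68, 6.09 and 2.89 CPM at ZT4 and 4.82, 1.89, 3.84 and 2.57 at ZT16 (-0.69 ± 0.35). The groups overlapped through the low value of ZT4 replicate 4. Bhlhe40, another repressor of the clock activators, was at 49.1, 55.5, 51.5 and 70.1 and 73.2, 33.2, 29.9 and 10.7 (-0.61 ± 0.56), with ZT16 replicate 1 the highest of all 8 libraries and ZT16 replicate 4 the lowest. Per1, a repressor that also responds to acute stimuli, was at 9.36 to 14.8 and 3.36 to 10.7 (-0.64 ± 0.51). Arntl2, a paralog of Arntl, was at 2.52 to 5.01 and 1.3 to 3.02 (-0.71 ± 0.34).

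Core genes with overlapping groups were Arntl, at 8.34 to 16.3 and 8.27 to 15.2 CPM (0.14 ± 0.29), its partner Clock (-0.27 ± 0.21), and the repressors Per2 (0.11 ± 0.43), Per3 (-0.34 ± 0.32), Cry1 (0.19 ± 0.23) and Cry2 (-0.41 ± 0.27). The direction of Per2 rested on ZT16 replicate 1, and without it the change was -0.23. Rora, which activates Arntl, was at -0.52 ± 0.26, and Nfil3, which represses output genes, at -0.38 ± 0.48. The output activators Dbp (0.35 ± 0.28), Tef (-0.18 ± 0.14) and Hlf (0.22 ± 0.62), the deubiquitinase Usp2 (-0.16 ± 0.45) and the repressor Bhlhe41 (-0.086 ± 0.22) also overlapped, as did Npas2 (0.75 ± 0.71), which was low in every library.

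The ZT16 minus ZT4 change of most clock genes at day 3 differed from that in uninjured stem cells. The 2 changes are unlike quantities: the ZT of an uninjured library cannot be the hour of an injury, while that of a day 3 library is, and the hour of collection of either is not given. The difference between the 2 time effects, day 3 minus uninjured, was tested in the same fit and passed an adjusted p of 0.05 for 1927 of 15084 genes (12.8%). The time effect itself passed for 2663 genes in uninjured muscle (17.7%) and for 0 at day 1 (0.0%, with 6.1% at an unadjusted p of 0.05). Of the 21 clock genes, 13 passed the test of the difference. Arntl was at -2.05 ± 0.34 in uninjured muscle and 0.14 ± 0.29 at day 3, a difference of 2.19 ± 0.44 (adjusted p 0.001901). Per2 was at 2.88 ± 0.45 and 0.11 ± 0.43 (difference -2.76 ± 0.61, 0.00622). Nr1d2 was at 0.87 ± 0.16 in uninjured muscle, so its direction was the opposite of that at day 3 (difference -1.49 ± 0.21, 0.000133). Tef gave a difference of -1.297 ± 0.20 (0.00026) and Cry1 of -1.64 ± 0.35 (0.00372). For Nr1d1 the effects were -0.95 ± 0.18 and -0.40 ± 0.17, and the difference of 0.54 ± 0.25 did not pass (0.162). Arntl averaged 35.4 and 8.55 CPM at ZT4 and ZT16 in uninjured muscle, and 11.6 and 12.8 at day 3.

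**Figure D2:**
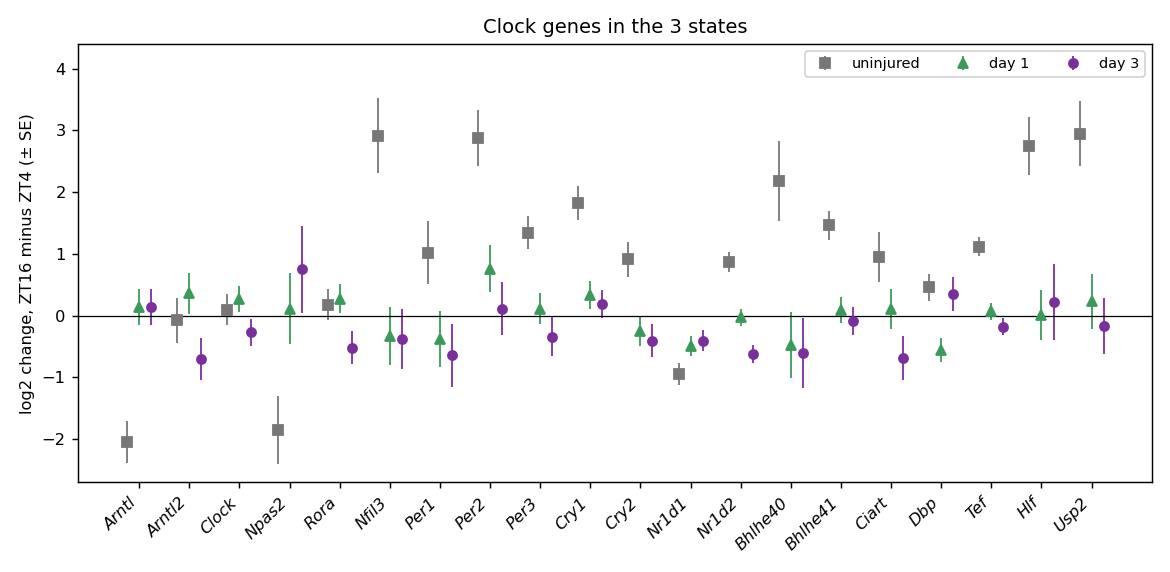
Log2 change between ZT16 and ZT4 (± SE, edgeR fit of all libraries) of 20 clock genes in uninjured muscle (gray, 3 libraries per time), at day 1 (green, 4 per time) and at day 3 (purple, 4 per time). The day 3 changes lie between -0.71 and 0.75, while those of uninjured muscle reach from -2.05 to 2.95.

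The 5 genes with the smallest p in that test were Dbi, Trip10, Klf13, Iqsec3 and Wee1. Dbi, which binds acyl-CoA, was at -1.63 ± 0.12 in uninjured muscle and 0.11 ± 0.10 at day 3 (difference 1.74 ± 0.15, adjusted p 2.69e-07). Wee1, a kinase that holds back mitosis and a known clock output, was at 2.66 ± 0.28 and -0.59 ± 0.23 (-3.25 ± 0.36, 1.08e-05). Klf13 differed by -2.31 ± 0.25, Trip10 by -1.78 ± 0.16 and Iqsec3 by 2.004 ± 0.23. Angptl4 was lower at ZT16 in both states, by more in uninjured muscle (-3.85 ± 0.63), and the difference of 3.08 ± 0.76 passed (0.0128).

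Against day 1 after injury, 0 of 15084 genes (0.0%) differed in their time effect by edgeR at an adjusted p of 0.05, with 711 (4.71%) at an unadjusted p of 0.05. DESeq2 called 4 and limma voom 0. The smallest p-values belonged to 9630010A21Rik, Socs2, Cpne2, Krt18 and Tmem245. Socs2, an inhibitor of cytokine and growth hormone signalling, was at 0.80 ± 0.15 at day 1 and -0.29 ± 0.15 at day 3 (difference -1.09 ± 0.21, adjusted p 0.169). Cpne2 was at -0.27 ± 0.18 and 0.97 ± 0.20 (1.24 ± 0.27, 0.492). Krt18, a keratin, differed by -1.34 ± 0.29 and Tmem245 by -0.74 ± 0.17.

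Matrix genes leaned lower after injury at ZT16. Of 94 genes in 5 matrix lists, all tested, 76 had a negative change (80.9%, against 49.4% of all genes), 21 passed an unadjusted p of 0.05 and 15 had groups that did not overlap, all of these lower. The background for those counts is 3.49% and 3.03% of all genes. The median change was -0.30. None passed the adjusted p, and DESeq2 on the day 3 libraries alone called 12, all lower, against 0.682% of all genes. Mean centred log2 levels of the lists overlapped between the groups for fibrillar collagens, at -0.156 to 0.509 (ZT4) and -0.307 to 0.007 (ZT16). Overlap was also present for glycoproteins and proteoglycans (-0.081 to 0.489 and -0.335 to -0.075) and collagen processing (-0.121 to 0.312 and -0.162 to -0.004). The groups were apart for basement membrane (0.022 to 0.256 and -0.263 to 0.01) and proteases (-0.019 to 0.341 and -0.227 to -0.064). The separate list of 19 integrins and other matrix receptors is not among the 5 and leaned less. Of those 19, 12 were lower and 7 higher, with a median of -0.094. Myoblasts and the stromal cells around them both make matrix, and markers of stromal cells moved in the same direction, as given below.

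Of 14 fibrillar and interstitial collagens, 13 were lower, with a median of -0.35, and the groups of 3 did not overlap. Col3a1, a main fibrillar collagen of healing tissue, was at 1161, 1688, 1458 and 2210.0 CPM at ZT4 and 1326, 1015, 1147 and 1064 at ZT16 (-0.52 ± 0.17, adjusted p 0.692). ZT16 replicate 1 lay above ZT4 replicate 1, and ZT4 replicate 4 was the highest. Col6a3, a chain of the microfibrillar collagen that surrounds muscle stem cells, was at 35.8, 49.6, 47.4 and 71.9 and 32.95, 28.8, 31.7 and 22.3 (-0.82 ± 0.35, adjusted p 0.734, and 0.00767 by DESeq2 on the day 3 libraries alone). Its mean TPM was 9.86 at ZT4 and 9.06 at ZT16, so the fall was much smaller in the length-adjusted level. Col5a2, which sets fibril diameter with Col5a1, was at 202 to 237 and 174 to 194 (-0.21 ± 0.092), and Col5a1 at 109.9 to 220.0 and 93.7 to 139.8 (-0.43 ± 0.23).

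Of 16 basement membrane genes, 13 were lower, with a median of -0.34. Col18a1, the source of endostatin, was at 155, 137, 136 and 139 and 97.7, 68.3, 119 and 115 CPM (-0.50 ± 0.16, adjusted p 0.692), and ZT16 replicate 2 was the lowest. Nid1, which bridges laminin and collagen IV, was at 30.6 to 56.8 and 20.8 to 32.5 (-0.55 ± 0.20). The collagen IV chains Col4a2 and Col4a1 were at -0.46 ± 0.18 and -0.45 ± 0.18. The groups of Col18a1 and Col4a2 did not overlap, and those of the other 2 did.

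Of 27 matrix glycoproteins and proteoglycans, 25 were lower, with a median of -0.39, and 6 had groups that did not overlap. Has2, the synthase of hyaluronan, was at 37.8, 44.1, 48.6 and 58.9 and 36.6, 22.7, 19.8 and 27.2 CPM (-0.83 ± 0.24, adjusted p 0.688, and 0.00767 in the day 3 libraries without ZT16 replicate 1). ZT16 replicate 1 lay just under the lowest ZT4 library. Vcan, a proteoglycan that binds hyaluronan, was at 57.1, 50.8, 48.3 and 46.3 and 35.7, 31.3, 36.2 and 31.2 (-0.59 ± 0.30), with both groups narrow and apart. Fn1, which encodes fibronectin, was at 109, 154, 114 and 193 and 108, 92.4, 94.5 and 90.6 (-0.57 ± 0.25), and Tnc, which encodes tenascin C, at 61.8, 58.4, 78.3 and 117 and 50.6, 41.8, 45.1 and 36.5 (-0.86 ± 0.51). For Fn1 and Tnc the ZT16 libraries were close together and the ZT4 libraries were spread, with replicate 4 on top. Fbn1, a microfibril protein (-0.55 ± 0.18), and Thbs2, a thrombospondin (-0.79 ± 0.31), had overlapping groups.

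Of 16 genes for collagen processing and crosslinking, 11 were lower, with a median of -0.10. Lox, which crosslinks collagen and elastin, was at 40.02, 52.4, 44.6 and 66.8 CPM at ZT4 and 31.8, 31.3, 24.5 and 24.8 at ZT16 (-0.86 ± 0.40, adjusted p 0.747, and 0.000567 by DESeq2 on the day 3 libraries alone). P4ha3, a collagen prolyl hydroxylase subunit, was at 6.54 to 7.35 and 3.07 to 4.64 (-0.94 ± 0.56). These 2 were the members whose groups did not overlap. P4ha2 was at -0.36 ± 0.17 and the collagen chaperone Fkbp10 at -0.18 ± 0.11, both with overlap.

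Of 21 matrix proteases and their inhibitors, 14 were lower and 7 higher, with a median of -0.25. Besides Mmp14, given above, Mmp9, a gelatinase, was at 11.3, 12.1, 11.9 and 13.2 and 6.16, 7.09, 5.44 and 7.395 CPM (-0.89 ± 0.39, adjusted p 0.734), and these 2 were the members without overlap. Plat, tissue plasminogen activator, was at 21.2, 23.1, 23.6 and 38.3 and 23.5, 13.7, 15.03 and 11.9 (-0.72 ± 0.32), and ZT4 replicate 4 was far above the rest. Among 19 integrins and other matrix receptors, 12 were lower, with a median of -0.09. The fibronectin receptor subunit Itga5 was at 74.9 to 101 and 60.02 to 74.01 (-0.41 ± 0.14), Itgb1 at 686 to 696 and 602 to 652 (-0.14 ± 0.07), and the proteoglycan receptor Sdc1 at -0.27 ± 0.18. The groups of these 3 did not overlap, and those of Itgav did (-0.32 ± 0.14).

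TGF-beta drives matrix production and holds back myoblast differentiation. Of 20 genes of its axis that were tested, 15 were lower, with a median of -0.17. At an unadjusted p of 0.05, 4 were lower, against 3.49% of all genes. The median was -0.089 without ZT4 replicate 4, -0.092 without ZT16 replicate 2 and -0.269 without ZT16 replicate 1. Skil, a feedback repressor of the pathway that TGF-beta induces, was at 57.8, 52.99, 58.5 and 63.6 CPM at ZT4 and 47.3, 31.5, 31.99 and 20.8 at ZT16 (-0.81 ± 0.28, adjusted p 0.692, and 0.00375 in the day 3 libraries without ZT16 replicate 1). Smad7, another feedback inhibitor, was at 3.61 to 4.603 and 4.41, 1.54, 1.76 and 1.66 (-0.75 ± 0.36), and only ZT16 replicate 1 lay within the ZT4 range. The receptor Tgfbr1 was at 51.7 to 68.3 and 60.7, 32.8, 38.4 and 32.9 (-0.47 ± 0.21), with the same library at the ZT4 level. Ltbp1, which stores the latent ligand in the matrix, was at -0.19 ± 0.086.

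Stromal markers and the 5 matrix lists were all highest in ZT4 replicate 4. The 13 fibro-adipogenic markers tested, 4 of which also stand in a matrix list, had summed levels between 469 and 776.5 CPM in the ZT4 libraries and between 443 and 570 in the ZT16 libraries, and 11 of 13 were lower (median -0.27), none at an unadjusted p of 0.05. Without those 4, 72 of 90 matrix genes were lower, with a median of -0.30. The mean centred log2 level of the markers was highest in ZT4 replicate 4 (0.67) and lowest in ZT4 replicate 1 (-0.40), while that of the glycoproteins and proteoglycans was highest in ZT4 replicate 4 (0.49), at -0.08 in ZT4 replicate 1, and at -0.07 to -0.34 in the ZT16 libraries. Dcn, Lum and Mfap5 stand in both of these lists and were kept in both levels, so part of the likeness is built in. Without ZT4 replicate 4 the median change was -0.21 for fibrillar collagens, -0.26 for basement membrane, -0.20 for glycoproteins and proteoglycans, -0.083 for proteases, -0.004 for collagen processing and crosslinking, and -0.055 for the fibro-adipogenic markers, and that of the integrins and other matrix receptors turned to 0.006. Without ZT4 replicate 1 it was -0.425 for proteases and -0.427 for the fibro-adipogenic markers. The integrin median was also -0.041 without ZT4 replicate 1, -0.028 without ZT16 replicate 1 and -0.060 without ZT16 replicate 2, and that of collagen processing -0.063 without ZT16 replicate 1 and -0.160 without ZT4 replicate 1. The part of stromal cells in the matrix result was not tested.

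**Figure D3:**
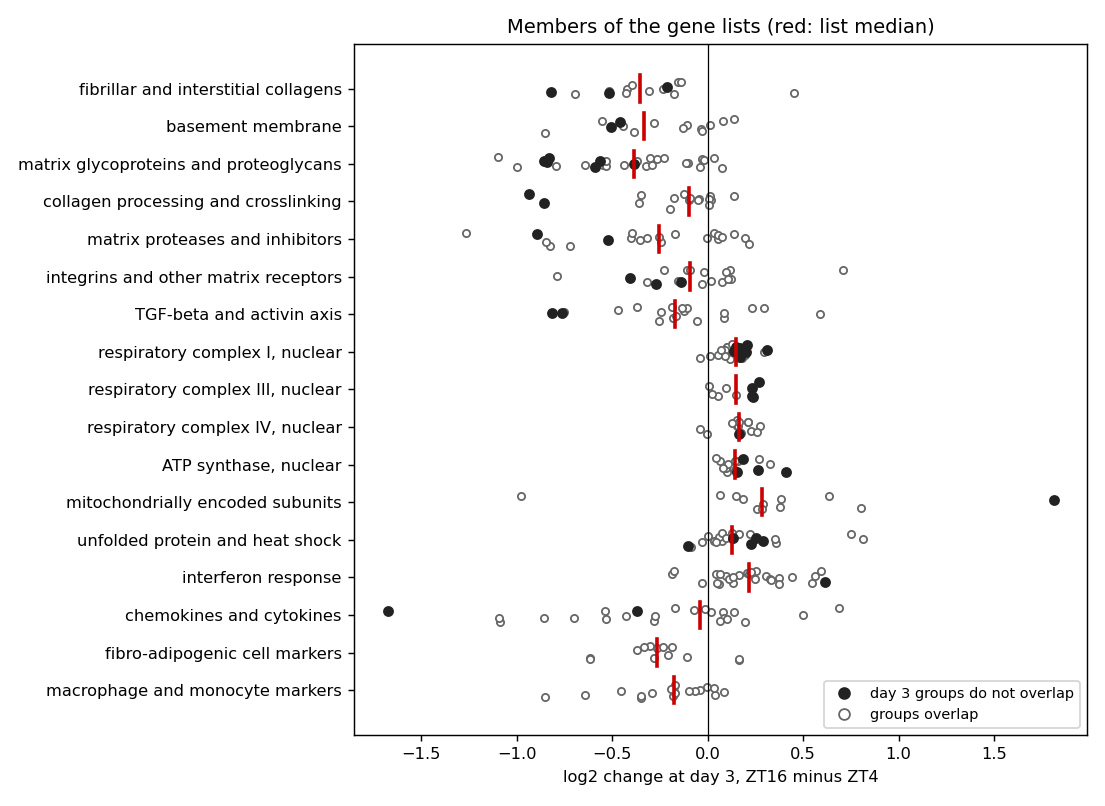
Log2 change (ZT16 minus ZT4, horizontal axis) of each member of 17 gene lists whose group means both reach 1 CPM, filled where the groups of 4 and 4 libraries do not overlap. Red bars are list medians over all members tested, which are below 0 in the matrix lists (-0.39 for glycoproteins and proteoglycans) and above 0 in the respiration lists (0.15 for complex I).

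Genes of respiration leaned higher after injury at ZT16, by small amounts. Of 78 nuclear genes for complexes I to IV and ATP synthase, all tested, 73 had a positive change (93.6%, against 50.5% of all genes), with a median of 0.15. At an unadjusted p of 0.05, 15 were higher and 0 lower, and 18 had groups that did not overlap, all higher, against 3.16% and 3.08% of all genes. None passed the adjusted p in edgeR, and DESeq2 on the day 3 libraries alone called 1, Ndufa11, higher, against 0.398% of all genes.

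Complex I, the entry point for electrons from NADH, had 35 of 36 subunits higher. Ndufa11 was at 120.1, 120.4, 125 and 119.5 CPM at ZT4 and 138, 166, 151 and 147 at ZT16 (0.31 ± 0.10, adjusted p 0.688, and 0.0249 by DESeq2). Ndufa10 was at 220.3 to 232 and 244 to 264 (0.20 ± 0.08). The groups of both were apart, and those of Ndufb3 overlapped (0.30 ± 0.12). All 9 subunits of complex III, which passes electrons to cytochrome c, were higher. Uqcrq was at 292, 296, 302 and 281 and 332, 384, 342 and 316 (0.23 ± 0.088, 0.692) and Uqcr11 at 271 to 304 and 317 to 368 (0.23 ± 0.10).

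In complex IV, cytochrome oxidase, 12 of 14 subunits were higher, among them, with overlap, Cox8a at 404 to 452 and 448 to 588 CPM (0.26 ± 0.11) and Cox6b1 at 0.23 ± 0.11. All 15 subunits of ATP synthase were higher. Atp5g2, of its membrane ring, was at 128, 126, 112 and 110.3 and 132, 199, 168 and 135 (0.41 ± 0.14, adjusted p 0.692), Atp5e at 133 to 152 and 156 to 195 (0.27 ± 0.10), and Atp5j2 at 0.32 ± 0.13. ZT16 replicate 2 had the highest level in most of these. Complex II, the succinate dehydrogenase, was even, with 2 of 4 higher and a median of 0.013.

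The mean centred log2 level of the complex I list was -0.11 to -0.050 in the ZT4 libraries and -0.008, 0.20, 0.077 and 0.007 in the ZT16 libraries, so the groups did not overlap. For ATP synthase the ZT4 libraries lay at -0.16 to -0.034 and the ZT16 libraries at -0.025, 0.25, 0.11 and -0.008. Complex III was also apart, at -0.127 to -0.047 and -0.029 to 0.193. The groups overlapped for complex IV, at -0.152 to 0.026 and -0.085 to 0.226, and for complex II, at -0.044 to 0.011 and -0.029 to 0.054. Without ZT16 replicate 2 the medians were 0.10 for complex I, 0.073 for complex III (0.226 without ZT16 replicate 1), 0.12 for complex IV and 0.12 for ATP synthase. Of 13 subunits encoded by mitochondrial DNA, 11 were higher and 2 lower, with a median of 0.29, and the libraries varied more. The changes of the 13 ran from -6.36 to 1.81. mt-Co2 was at 789, 718, 585 and 518 and 669, 1708, 1408 and 765 (0.80 ± 0.30, adjusted p 0.695), with ZT16 replicates 2 and 3 high and replicates 1 and 4 within the ZT4 range. mt-Nd3 was at 10.99, 9.46, 8.32 and 13.4 and 19.2, 78.3, 35.03 and 15.7 (1.81 ± 0.83), without overlap. Without ZT16 replicate 2 the median of these 13 was 0.093.

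Neighbouring parts of metabolism did not lean one way. Of 16 glycolytic genes 9 were higher and 7 lower. Hk2, the inducible hexokinase, was at 18.2 to 36.2 and 12.8 to 23.5 CPM (-0.52 ± 0.20), and Gapdh at 1986 to 2362 and 2182 to 2932 (0.24 ± 0.10), both with overlap. Sterol synthesis had 10 of 20 higher and a median of -0.003. Of 17 tested genes of NAD metabolism 11 were higher, with a median of 0.032, and Nampt, which makes the precursor of NAD, was at 53.8, 55.4, 56.1 and 44.9 and 58.9, 55.2, 43.2 and 52.4 (-0.001 ± 0.13).

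**Figure D4:**
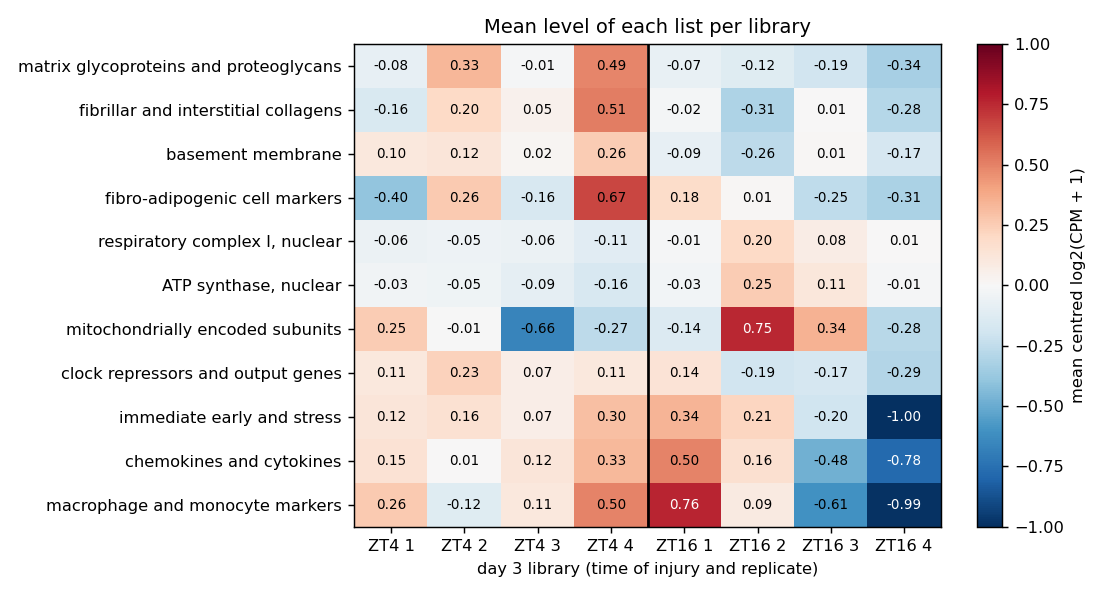
Mean centred log2(CPM + 1) of the members of 11 gene lists in each day 3 library, 4 ZT4 libraries left of the line and 4 ZT16 libraries right of it, with the value in each cell. Macrophage markers, chemokines and immediate early genes are high in ZT16 replicate 1 (0.76, 0.50 and 0.34) and low in ZT16 replicate 4 (-0.99, -0.78 and -0.996), and fibro-adipogenic markers and matrix genes are highest in ZT4 replicate 4.

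Genes of the unfolded protein and heat shock list leaned slightly higher. Of its 22 genes, 19 were higher, with a median of 0.13, and 2 passed an unadjusted p of 0.05, both higher, against 3.16% of all genes. Calr, the chaperone calreticulin, was at 395, 448, 476 and 453 CPM at ZT4 and 469, 624, 581 and 593 at ZT16 (0.35 ± 0.11, adjusted p 0.688, and 0.0249 by DESeq2 on the day 3 libraries alone), and ZT16 replicate 1 lay within the ZT4 range. Manf, a secreted stress-induced factor with a role in muscle regeneration, was at 198, 235, 228 and 225 and 250.4, 278, 286 and 267 (0.29 ± 0.11, 0.6997, and 0.0314), with no overlap. Creld2 was at 0.23 ± 0.12, without overlap, and the regulator Atf4 at 0.36 ± 0.23, with it.

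Chemokines and cytokines had no common direction, with 13 of 28 tested genes higher and a median of -0.042. That median was -0.54 without ZT16 replicate 1 and -0.22 without ZT16 replicate 2, and it was above 0 without ZT16 replicate 3 (0.104), ZT16 replicate 4 (0.062) or ZT4 replicate 4 (0.033). Single genes changed by -1.68 to 3.29. At an unadjusted p of 0.05, 2 were higher and 3 lower, against 3.16% and 3.49% of all genes. The groups of 3 did not overlap, all lower, against 3.03% of all genes. Ccl2, which draws monocytes, was at 26.7, 24.5, 28.2 and 33.1 CPM at ZT4 and 39.4, 23.4, 13.1 and 5.74 at ZT16 (-0.43 ± 0.47, adjusted p 0.949). The ZT4 libraries were alike and the ZT16 libraries ran from far above to far below them. Cxcl12, which attracts cells bearing CXCR4, was at 60.9, 69.7, 71.4 and 65.6 and 50.9, 53.4, 50.9 and 52.1 (-0.37 ± 0.15, 0.734), with narrow groups that did not overlap. Ccl11 was at -1.09 ± 0.50 and Ccl12 at 1.39 ± 0.65, with overlap. Il1r1, the receptor for interleukin 1, was at 94.2, 108, 123 and 111 and 83.2, 81.9, 72.8 and 88.9 (-0.42 ± 0.12, 0.688), and its groups did not overlap.

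Macrophage markers moved with these genes from library to library. The 18 macrophage and monocyte markers summed to 639 to 971 CPM in the ZT4 libraries, and to 1207 in ZT16 replicate 1 and 335 in ZT16 replicate 4. Of the 18, 15 were lower, with a median of -0.17. The median was -0.58 without ZT16 replicate 1, -0.28 without ZT16 replicate 2, -0.071 without ZT4 replicate 4 and -0.032 without ZT16 replicate 3, and it turned to 0.046 without ZT16 replicate 4. Csf1r, the receptor of macrophage colony-stimulating factor, was at 40.2, 34.8, 41.3 and 48.7 and 50.6, 38.2, 18.7 and 20.5 (-0.35 ± 0.27). Of 21 immediate early and stress genes 16 were lower, with a median of -0.23, which was -0.45 without ZT16 replicate 1 and -0.044 without ZT16 replicate 4. Klf6 was at 387, 359, 385 and 420.5 and 370.5, 277, 201 and 147 (-0.64 ± 0.31). The part of macrophages in the values of Ccl2, Bhlhe40 and Nfil3 was not tested. Neutrophil markers were near 0, with sums of 3.199 to 6.91 CPM in ZT4 libraries and 1.12 to 4.31 in ZT16 libraries, and Retnlg had no count in any day 3 library.

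Of 29 interferon response genes 25 were higher, against 50.5% of all genes, with a median of 0.22. At an unadjusted p of 0.05, 1 was higher, against 3.16% of all genes. The median was 0.123 without ZT4 replicate 1 and 0.355 without ZT4 replicate 4. The mean centred log2 levels of the list overlapped between the groups, with ZT4 replicate 4 at 0.205 and ZT16 replicate 2 at -0.15. Xaf1, an interferon-induced gene, was at 10.04, 7.37, 9.36 and 10.9 CPM at ZT4 and 14.99, 13.8, 14.2 and 14.6 at ZT16 (0.61 ± 0.21, adjusted p 0.692). Its ZT16 values were narrow and above all ZT4 values. Of 13 genes of MHC class I and antigen processing 9 were higher, with a median of 0.077, and of 0.014 without ZT4 replicate 1 and 0.274 without ZT4 replicate 4. Among them Psmb10, a subunit of the immunoproteasome, was at 35.6 to 44.1 and 46.03 to 53.3 (0.36 ± 0.18), without overlap. Of 17 NF-kB response genes 7 were higher, with a median of -0.05, which ran from -0.146 to -0.001 with single libraries left out.

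Of 11 myogenic regulators 6 were higher and 5 lower, 2 in each direction at an unadjusted p of 0.05. Of all genes, 3.16% were higher and 3.49% lower at that p. Myod1, which commits the cells to muscle (chr7:46376474-46379099), was at 724, 744, 759 and 744 CPM at ZT4 and 812, 905, 956 and 888 at ZT16. All ZT16 libraries were higher, and the means were 743 ± 14.1 and 890.0 ± 59.6 (SD, n = 4 and 4, 0.26 ± 0.11, adjusted p 0.734 in edgeR and 0.0188 in DESeq2 on the day 3 libraries alone). Pax7 was at 23.5, 22.95, 18.1 and 21.9 and 22.1, 22.1, 20.8 and 29.1 (0.12 ± 0.15), and Myf5, a determination factor, at 76.3, 75.4, 38.3 and 65.3 and 73.3, 68.2, 45.4 and 45.7 (-0.13 ± 0.23).

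The differentiation factor Myog was at 1622, 1678, 1376 and 1636 and 1628, 1117, 2223 and 2047 CPM (0.15 ± 0.42), and the fusion protein Mymk at 298, 284, 239 and 272 and 258, 208, 487 and 384 (0.29 ± 0.32). In both, ZT16 replicate 2 was the lowest and ZT16 replicate 3 the highest of the 8 libraries. Of 20 genes of fusion and early differentiation 17 were higher, with a median of 0.13, none at an unadjusted p of 0.05, and the median was 0.005 without ZT16 replicate 3, 0.071 without ZT4 replicate 3 and 0.281 without ZT16 replicate 2. Pax3, a paralog of Pax7, was at 2.51, 1.39, 0.891 and 0.394 and 0.308, 0, 0.3199 and 0.906 CPM (-1.77 ± 0.68), and Mef2a, a partner of the myogenic factors, was at 274 to 348 and 207 to 298 (-0.32 ± 0.15), both with overlap.

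Proliferation lists had medians near 0. Of 30 DNA replication genes 11 were higher and 19 lower, with a median of -0.048, and of 23 mitotic genes 12 were higher and 11 lower, with a median of 0.01. The groups did not overlap for 2 of the 30 and 3 of the 23, all lower, against 3.03% of all genes. For 0 genes of either list were they apart and higher. Pola1, the catalytic subunit of the polymerase that primes replication, was at 65.3, 57.4, 63.6 and 51.03 CPM at ZT4 and 47.3, 41.6, 42.5 and 38.9 at ZT16 (-0.48 ± 0.13, adjusted p 0.688, and 0.0183 by DESeq2 on the day 3 libraries alone, and 0.0316 by edgeR in those without ZT16 replicate 1). Mki67, a proliferation marker, was at 142, 142, 131 and 130.3 and 99.4, 128, 112 and 97.2 (-0.32 ± 0.36), and Cenpe, a kinetochore motor, at 98.2 to 109 and 78.5 to 92.7 (-0.28 ± 0.18). In all 3 the ZT16 values lay below the ZT4 values, and the groups were separate. Of 22 ribosome biogenesis genes 16 were higher, with a median of 0.051.

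The remaining lists had few members past an unadjusted p of 0.05, which 6.65% of all genes passed. Of 22 growth factors and receptors 7 were higher and 15 lower (median -0.05, 0 at an unadjusted p of 0.05), of 17 hypoxia genes 6 and 11 (median -0.13, 1 at that p), and of 21 genes of quiescence and Notch signalling, which keeps stem cells undivided, 12 and 9 (median 0.008, 1 at that p). Endothelial markers together gave 20.7 to 38.6 CPM in ZT4 libraries and 20.5 to 25.9 in ZT16 libraries, and mural markers 319 to 394 and 253 to 438. Of 18 mature myofiber genes 10 were higher, with sums of 3980 to 4553 CPM in ZT4 libraries and from 3337 in ZT16 replicate 2 to 5532 in ZT16 replicate 3. Erythroid genes summed to 5.35 to 12.4 and 1.51 to 6.67 CPM, with 4 of 6 tested and all 4 lower, Schwann cell markers to 3.94 to 7.85 and 2.87 to 6.64, and lymphocyte markers, of which 1 of 10 was tested, to 0.297 to 6.59 and 0.709 to 1.64. The natural killer cell gene Klrd1 had no count in any day 3 library.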

How the data were processed

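The deposited files give, for each of 103732 transcripts in a library, an expected count and TPM, its length-adjusted share of transcripts, estimated by RSEM, per the file headers. Expected counts of the authors were summed per gene and rounded (43430 genes, 42462 of them matched by identifier to GENCODE M21 on GRCm38). TPM deposited by the authors was summed per gene for levels only. The tools named in the submitters' processing notes are RSEM 1.3.3, STAR 2.5.2, Trimmomatic 0.33 and DESeq2, with mm10, and the annotation release is not given in the sources used here.

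All 22 libraries entered 1 fit of edgeR 4.0.16 (R 4.3.3) with TMM scaling and 1 coefficient for each combination of injury state and time, after filterByExpr had kept 15084 genes (minimum count 10, total 15). The script was tested on simulated data. The p-values were adjusted by Benjamini-Hochberg. SE is the log2 change, without its sign, divided by the root of the F statistic. DESeq2 1.42.0 and limma 3.58.1 served as alternatives, with other scalings, filters, subsets of libraries and each day 3 library left out.

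The comparison, its 41 gene lists (690 genes, 665 tested) and the rule for named genes were chosen with earlier results of these data known. The rule took the 10 smallest p in each direction among genes with at least 5 CPM and groups that did not overlap, up to 4 members of each list described, the clock genes, Pax7, Myf5, Myod1, Myog, Mymk, Ccl2 and Nampt, and the 5 smallest p in each test of a difference. A few genes that the rule takes are not reported here. Promoter and microRNA sequences are from RefSeq.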

Additional observations from a re-analysis of the deposited data

Results flagged for a closer look

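In each group of 4 day 3 libraries, the highest or lowest library was set against the other 3 for every gene described, 242 groups of values in all. In 13 of them 1 library lay far from the rest, where chance gives about 1 in 20. Angptl4 had 240 CPM in ZT4 replicate 3 against 195 to 196 in the other 3. Per2 had 7.38 in ZT4 replicate 1 against 10.1 to 10.4, and Per3 had 2.77 in ZT16 replicate 1 against 4.96 to 5.13. The noncoding gene 9630010A21Rik had 0.103 in ZT16 replicate 1 and no count in the other 3. Among matrix and TGF-beta genes, Col5a2 had 174 in ZT16 replicate 4 against 192 to 194, Col18a1 155 in ZT4 replicate 1 against 136 to 139, Col4a1 44.1 in ZT4 replicate 1 against 52.3 to 53.4, Plat 38.3 in ZT4 replicate 4 against 21.2 to 23.6, and Smad7 4.41 in ZT16 replicate 1 against 1.54 to 1.76. Psmb10 had 44.1 in ZT4 replicate 4 against 35.6 to 36.6, Ndufa10 244 in ZT16 replicate 1 against 261 to 264, Cox6b1 396 in ZT4 replicate 2 against 362 to 366, and Pax7 29.1 in ZT16 replicate 4 against 20.8 to 22.1.

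The log2 change between ZT16 and ZT4 at day 3 was set against that in uninjured muscle by the test of the difference in edgeR, which 1927 of 15084 genes passed (adjusted p under 0.05, 12.8%). Only the clock genes, Angptl4 and the 5 genes with the smallest p in that test are given here, and 19 of these passed; other genes described above passed as well. The difference was above 0 for Angptl4 (3.08), Arntl (2.19), Iqsec3 (2.00) and Dbi (1.74). It was below 0 for the clock repressors Per2 (-2.76), Per3 (-1.68), Cry1 (-1.64), Cry2 (-1.32), Nr1d2 (-1.49), Bhlhe40 (-2.78), Bhlhe41 (-1.55), Ciart (-1.64) and Nfil3 (-3.29), for the output genes Tef (-1.30), Hlf (-2.52), Usp2 (-3.11) and Wee1 (-3.25), and for Trip10 (-1.78) and Klf13 (-2.31).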

How the results depend on the processing

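The count of genes past an adjusted p of 0.05 at day 3 was 0 in the edgeR fit of all libraries and stayed 0 with DESeq2's size factors, upper quartile scaling, a minimum count of 50, limma voom, the injured libraries alone, and each day 3 library left out of the fit of all libraries. It was 4 with DESeq2, 127 without a filter on low counts and 1 in the day 3 libraries alone. On those 8 libraries, as choices made after seeing the data, it was 141 with DESeq2 and 5 with limma voom. With each library left out of that fit in turn it ran from 0 to 135, with 135 without ZT16 replicate 1, 3 without ZT16 replicate 4, 2 without ZT4 replicate 4 and 1 without ZT16 replicate 2. The count for the difference from day 1 was 4 with DESeq2 and 77 without the filter, against 0. That for the difference from uninjured muscle ran from 1549 to 2426 over all alternatives. The causes of these shifts were not tested.

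The labels number replicates 1 to 4 in both groups. Deviations of same-numbered libraries from their group means correlated at -0.012, 0, -0.077 and -0.066 over 11142 genes, so the numbers were not taken as pairs. With the replicate number as a block, 0 genes passed at day 3 (smallest adjusted p 0.0651), 0 differed from day 1 and 1683 differed from uninjured muscle.

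The direction at day 3 turned for 7 named genes. With limma voom Npas2 was at -0.43 and Per2 at -0.027 (-0.045 in the day 3 libraries alone). Nampt was at 0.005 with upper quartile scaling and 0.002 without the filter. With single libraries left out of the fit of all libraries, the change ran from -0.66 to 0.45 for Dnm3, -0.225 to 0.27 for Per2, -0.239 to 0.072 for Bhlhe41, -0.14 to 0.47 for Hlf and -0.072 to 0.08 for Nampt. In the day 3 libraries alone with 1 left out, the turned values were 0.43 for Dnm3, -0.24 and -0.002 for Per2, 0.065 and 0.024 for Bhlhe41, -0.004 for Pax7, and 0.007, 0.018, 0.025 and 0.073 for Nampt. Genes under 5 CPM, among them Npas2 and Hlf, are limited by depth.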
